A study of Mus musculus with 6 samples.

Results

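The aminoacyl-tRNA synthetase genes were examined in RAW264.7 cells, an established mouse macrophage-like line that came from a virus-induced tumour. The members were found by symbol: 20 cytosolic synthetase genes and 16 mitochondrial ones, whose symbols end in 2. All 36 were present among the 25124 gene symbols of the deposited table of TPM values (TPM is a transcript level per length, scaled to each library's total). The comparison set 3 libraries of RAW264.7 cells with the genotype label E4BP4 knockout, called here the libraries labelled KO, against 3 libraries of RAW264.7 cells labelled Control. Both groups were grown in high-glucose medium with serum, with no treatment in the labels, and RNA was selected by its poly(A) tail. Nfil3 encodes E4BP4, a transcription factor with a basic leucine zipper. The sources used here do not give the way the gene was targeted, the number of clones or the origin of the replicates. The p-values therefore measure the spread among libraries, and that spread may be technical. In such bulk samples, fewer cells that express a gene and less RNA per cell cannot be told apart.

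Aminoacyl-tRNA synthetases join each amino acid to its matching tRNA and so supply the ribosome with charged tRNA. Cytosolic and mitochondrial protein synthesis draw on largely separate sets of these enzymes, all encoded in the nucleus, although Gars and Kars are each known to encode both forms. Many cytosolic synthetase genes are known targets of ATF4, the transcription factor made when amino acid shortage or other stress leads to phosphorylation of eIF2. In mammals several cytosolic synthetases form a large multi-synthetase complex held together by scaffold proteins.

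The reads recovered from the deposited values numbered 18373052 to 19867732 per library under the KO label and 15615639 to 18110568 under the Control label. Nfil3, the targeted gene, was not lower under the KO label: it measured 105, 104 and 99.8 TPM in the libraries labelled KO, against 29.5, 29.9 and 31.0 TPM in the libraries labelled Control. Whether the coding sequence was edited cannot be read from such a value. The groups are called by their labels. The deposited values are headed KOM0 and WTM0, and WTM0 was read as Control because it is the only group not headed as knockout. Every direction below rests on those labels and on that reading. All 7 macrophage markers examined were present, with a summed level of 3293 to 3464 TPM in the libraries labelled KO and 2328 to 2541 TPM in the libraries labelled Control. Of 17 markers of T cells, B cells, fibroblasts, epithelium, endothelium and red cells, 0 reached 1 TPM in at least 3 libraries, and 5 of them were listed at 0 throughout, among them Cd3g, Krt8, Hbb-bs and Hba-a1. Their sum was 1.03 to 1.66 TPM in the libraries labelled KO and 1.68 to 1.90 TPM in the libraries labelled Control.

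Cytosolic synthetase genes rose nearly as a block in the libraries labelled KO, whereas the mitochondrial genes were divided. In limma, fitted over 11257 genes on log2(TPM + 1) and called at a Benjamini-Hochberg adjusted p under 0.05, 18 of 20 cytosolic genes were higher, 1 was lower (Farsa) and 1 did not pass (Hars). Over all genes tested, 50.1% were called, 26.7% as higher and 23.4% as lower. Of the 16 mitochondrial genes, 7 were higher, 1 was lower (Lars2) and 8 did not pass. The median log2 fold change, signed as KO minus Control throughout, was 0.43 for the cytosolic genes, 0.07 for the mitochondrial genes and 0.02 for all genes tested. As ratios of mean TPM these medians were 1.35, 1.06 and 1.01. Leaving Gars and Kars out of the cytosolic class left its median at 0.43. Members are genes of a pathway and not replicates, so the difference between the classes is given as a description and was not tested.

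**Figure D1:**
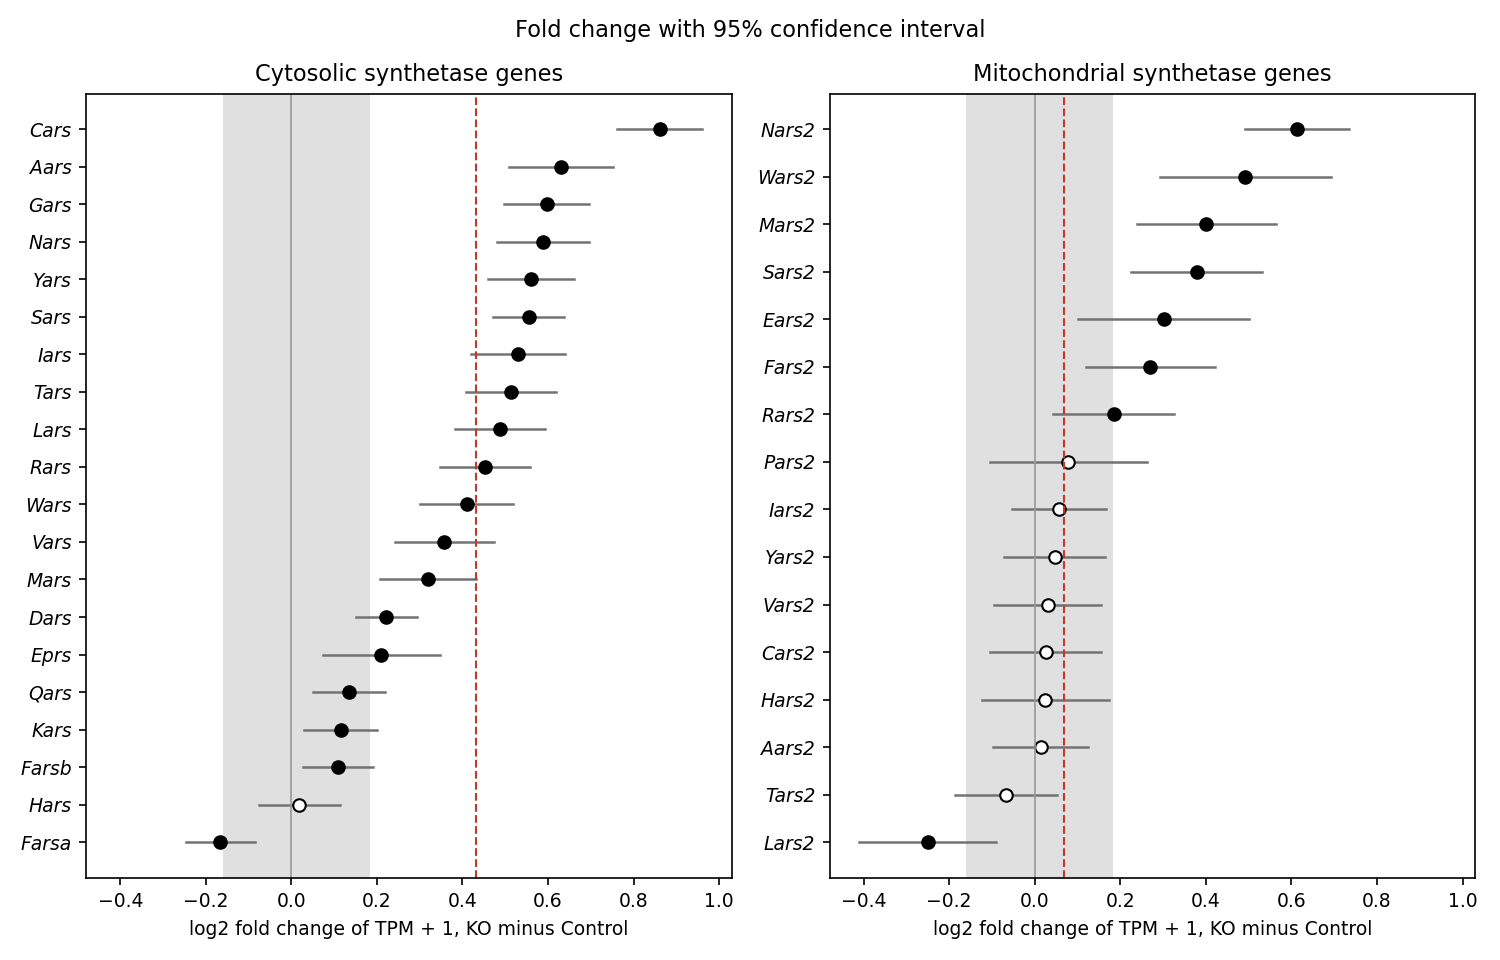
Log2 fold change of TPM + 1 (KO minus Control, x axis) of each cytosolic (left) and mitochondrial (right) synthetase gene, with 95% confidence intervals from limma. Filled points passed the threshold, the dashed line is the class median (0.43 and 0.07) and the grey band holds the middle of all tested genes, from −0.16 to 0.18. Most cytosolic genes lie right of the band, and 9 of the mitochondrial genes lie inside it or left of it.

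Cytosolic synthetase transcripts were also the more abundant set. Their summed level was 2821, 2822 and 2736 TPM in the libraries labelled KO, against 1999, 2169 and 2121 TPM in the libraries labelled Control. The groups did not overlap, and the ratio of the means was 1.33. The mitochondrial genes summed to 339.5, 344 and 332 TPM under the KO label and 349.8, 350.5 and 334 TPM under the Control label, a ratio of 0.98 with overlapping groups. Lars2 alone held a large part of that sum. Without it, the mitochondrial sum was 216 ± 1.13 TPM under the KO label and 199 ± 6.74 TPM under the Control label (SD, n = 3 each). Control replicate 1 was the lowest control library for 18 of the 20 cytosolic genes, against 49.6% of all genes tested. Without that library the cytosolic median was 0.42 on the log2 scale, with 17 genes higher and 1 lower.

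**Figure D2:**
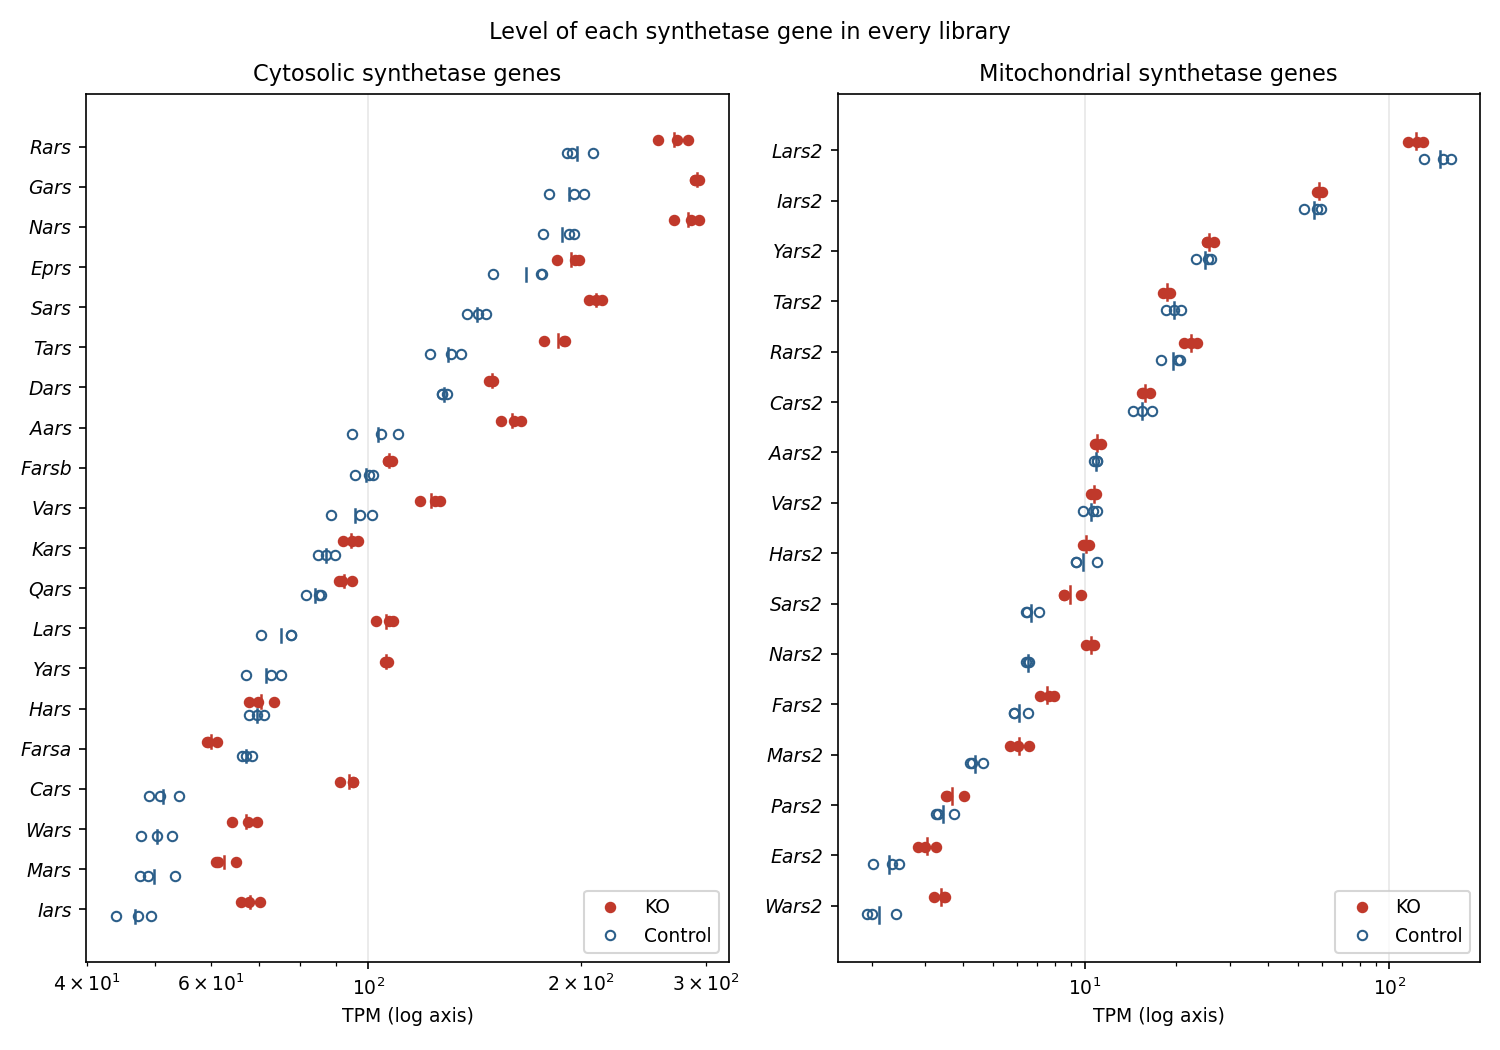
TPM on a log axis of each cytosolic (left) and mitochondrial (right) synthetase gene in every library, with filled points for KO above open points for Control and a short line at each group mean. Cytosolic means span 59.9 to 291 TPM under the KO label and 46.8 to 198 TPM under the Control label, and all mitochondrial genes but Lars2 and Iars2 have lower means than any cytosolic gene.

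Within the cytosolic class, Rars, Gars and Nars were the most abundant under the Control label, at 198 ± 8.83, 192 ± 11.02 and 188 ± 9.92 TPM (SD, n = 3 each), and these neighbours in the order did not differ beyond their spread. Under the KO label Gars came first with 291 ± 2.32 TPM, followed by Nars with 283 ± 11.9 TPM and Rars with 271 ± 13.1 TPM. Iars and Mars were the least abundant under the Control label, at 46.8 ± 2.69 and 49.9 ± 2.995 TPM. Farsa became the least abundant under the KO label, at 59.9 ± 1.12 TPM.

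Cars, which charges the cysteine tRNA, had the largest log2 fold change of the class. It lies on chromosome 7, whose tested genes had a median of 0.24, and with that shift removed it came after Aars (0.62 against 0.63). Cars measured 95.1, 95.1 and 91.2 TPM in the libraries labelled KO, against 48.9, 53.9 and 50.8 TPM in the libraries labelled Control. Every library labelled KO lay far above the highest control, with a ratio of means of 1.83 (log2 fold change 0.86, SE 0.044, limma adjusted p = 4.99e-07). Aars, the alanine enzyme, had 164, 161 and 154 TPM under the KO label and 94.97, 110.2 and 104 TPM under the Control label. The ratio was 1.55 (log2 fold change 0.63, SE 0.054, limma adjusted p = 1.30e-05), again without overlap.

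Gars, the glycine enzyme of both compartments, measured 293.8, 289.9 and 289.7 TPM in the libraries labelled KO, against 180.1, 202 and 195 TPM in the libraries labelled Control. Nars, the asparagine enzyme, measured 286, 293.5 and 270.2 TPM in the libraries labelled KO and 177, 192 and 195 TPM in the libraries labelled Control. Neither gene's groups overlapped, and the ratios of means were 1.51 and 1.51. These 4 genes, Cars, Aars, Gars and Nars, were the cytosolic members with a ratio of at least 1.5, a size reached by 5.27% of all genes tested, and 0 of the 20 had a ratio of at most 1/1.5, against 6.09% of all genes tested.

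A second tier followed closely. Yars (tyrosine), Sars (serine), Iars (isoleucine), Tars (threonine) and Lars (leucine, an enzyme also known as a leucine sensor upstream of mTORC1) had ratios of 1.48, 1.47, 1.45, 1.43 and 1.41. Iars, the least abundant of them, measured 70.2, 67.7 and 66.1 TPM in the libraries labelled KO and 43.9, 49.2 and 47.3 TPM in the libraries labelled Control. Rars (arginine) was the most abundant cytosolic member under the Control label and measured 272.8, 282.7 and 256.8 TPM in the libraries labelled KO, against 190.7, 207 and 194 TPM in the libraries labelled Control. The lowest library labelled KO thus exceeded the highest control, at a ratio of 1.37. Wars, the tryptophan enzyme and known as an interferon-induced gene, had a ratio of 1.34, and Vars, the valine enzyme, had a ratio of 1.28. The calls of these 8 genes and of the 4 above held under each of the alternatives tried.

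Sequences around the start were examined for fixed motifs, which were chosen with earlier results of these data known. Windows of 250 bases before and 50 bases after the RefSeq start (GRCm38.p6, the assembly of mm10) were matched for 13 of the 20 cytosolic and 14 of the 16 mitochondrial genes. Cars, Hars, Lars, Nars, Rars, Vars, Wars, Hars2 and Pars2 were not matched. The search used TGATGNAA, a form of the composite C/EBP-ATF site that ATF4 is known to bind, on both strands, and the D-box forms TTACGTAA and TTATGTAA, which E4BP4 is known to bind. TGATGNAA was found in the windows of 5 of the 13 cytosolic genes, namely Aars, Gars, Iars, Tars and Yars, and in 0 of the 14 mitochondrial windows, against 4.51% of 27025 genes with a window. The log2 fold changes of those 5 genes ran from 0.51 to 0.63. Those of the 8 cytosolic genes with a window and no match ran from −0.17 to 0.55, with a median of 0.17. Cars (0.86), Nars (0.59), Lars (0.49), Rars (0.45), Wars (0.41), Vars (0.36) and Hars (0.02) had no window and are in neither group. Whether a match goes with a larger change was not tested and cannot be read from this incomplete split. Neither D-box form was found in the windows of these 27 genes, and the shares over all genes were 0.126% and 1.11%. A match is a description of letters and not of binding, and the absence of a match speaks only of these windows.

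The matching stretches are shown so that the sites can be compared, each read in the direction of the gene, 5′ to 3′, with the match in capitals. Aars, Gars and Tars are shown by the 120 bases before the start. In Aars (chr8:111033722-111033841, plus strand) the match begins 112 bases before the start, in Gars (chr6:55037881-55038000, plus strand) 30 bases before it, and in Tars (chr15:11399659-11399778, minus strand) 15 bases before it.
Aars: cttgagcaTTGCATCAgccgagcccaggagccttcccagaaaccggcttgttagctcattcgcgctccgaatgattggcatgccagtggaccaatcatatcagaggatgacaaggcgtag
Gars: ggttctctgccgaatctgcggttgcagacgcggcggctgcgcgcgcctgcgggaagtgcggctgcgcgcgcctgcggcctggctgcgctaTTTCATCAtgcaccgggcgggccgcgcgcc
Tars: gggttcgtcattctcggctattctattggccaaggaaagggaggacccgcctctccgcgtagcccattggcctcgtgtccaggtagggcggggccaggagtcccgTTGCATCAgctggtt
The remaining matches lie just past the start and are shown by 30 bases around each match, for a further match in Aars (chr8:111033840-111033869, plus strand), for Iars (chr13:49682126-49682155, plus strand) and for Yars (chr4:129189895-129189924, plus strand), where they begin at base 10, 8 and 4 of the transcript.
Aars: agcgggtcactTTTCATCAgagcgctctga
Iars: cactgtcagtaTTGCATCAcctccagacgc
Yars: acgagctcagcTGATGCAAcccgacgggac
Aars, Iars and Tars shared the stretch TTGCATCA, Aars and Gars shared TTTCATCA, and Yars held TGATGCAA, the reverse complement of the first. Of the 7 genes of the amino acid response list, the same search found TGATGNAA in the windows of 3 (Asns, Chac1 and Trib3) and in none of Atf4, Ddit3, Eif2ak4 and Eif2s1.

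Every synthetase gene of the multi-synthetase complex rose, with a lower median than the genes outside it, a difference that was not tested. All 8 (Dars, Eprs, Iars, Kars, Lars, Mars, Qars and Rars) were higher, against 26.7% of all genes tested. Their median log2 fold change was 0.27, with a range from 0.12 to 0.53. Outside the complex 10 of 12 were higher and 1 was lower, with a median of 0.53. Mars, the methionine enzyme, measured 64.98, 61.0 and 61.4 TPM in the libraries labelled KO and 47.5, 53.2 and 48.8 TPM in the libraries labelled Control, a ratio of 1.25. Mars shares 68 of its 2939 exonic bases with Ddit3 on the opposite strand in GENCODE M21, and Ddit3 was 5.03-fold higher. The library kit does not mark strand, so reads from the shared bases cannot be told apart, and their part in the Mars value was not tested.

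Dars (aspartate) had 149 ± 1.08 TPM under the KO label and 128 ± 1.28 TPM under the Control label, a small difference with little spread (ratio 1.17). Eprs, which charges both glutamate and proline tRNAs and in human myeloid cells joins a complex that holds back translation after interferon-gamma, had 193 ± 7.24 TPM under the KO label and 167 ± 14.6 TPM under the Control label. Its call ended without KO replicate 1 (adjusted p = 0.0612) and without KO replicate 2 (adjusted p = 0.0542), and with no filter on low values (adjusted p = 0.0627). Kars, the lysine enzyme of both compartments, measured 96.8, 92.0 and 94.9 TPM in the libraries labelled KO, against 85.0, 89.7 and 87.0 TPM in the libraries labelled Control. The log2 fold change of 0.12 (SE 0.038, limma adjusted p = 0.0299) was past the threshold, but 6 of 14 alternatives ended the call. Qars, the glutamine enzyme, had a ratio of 1.10, and its call ended without KO replicate 3 (adjusted p = 0.0532).

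Of the 3 scaffolds of the complex, 2 were called higher and 0 lower, against 26.7% and 23.4% of all genes tested. Aimp1 and Eef1e1 rose by 0.22 and 0.22 on the log2 scale, to 171 ± 4.66 and 112 ± 2.97 TPM under the KO label, against 146.5 ± 6.08 and 96.1 ± 1.63 TPM under the Control label. Aimp2, the third scaffold, narrowly missed the threshold, at −0.11 on the log2 scale (limma adjusted p = 0.0518). Its groups did not overlap, with 34.05, 33.1 and 32.9 TPM under the KO label and 35.6, 37.4 and 35.2 TPM under the Control label.

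By catalytic fold, all 10 class I enzymes were higher, with a median of 0.43. Of 11 class II enzymes, 9 were higher and 1 was lower, with a median of 0.22. Among all genes tested, 26.7% were higher and 23.4% were lower. Eprs, with a catalytic part of each class, is counted in both.

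The subunits of the cytosolic phenylalanine enzyme moved in opposite directions. Farsa, the catalytic alpha subunit, fell to 61.1, 59.1 and 59.3 TPM in the libraries labelled KO, against 66.3, 67.1 and 68.4 TPM in the libraries labelled Control. Its groups did not overlap (log2 fold change −0.17, SE 0.036, limma adjusted p = 0.00386), and the direction and call held under each alternative tried. Farsb, the beta subunit, measured 107 ± 0.805 TPM under the KO label and 99.2 ± 3.01 TPM under the Control label (log2 fold change 0.11, limma adjusted p = 0.0306), and 8 of 14 alternatives ended its call. Farsb also shares 248 of its 2036 exonic bases with Sgpp2 on the opposite strand. The ratio of Farsa to Farsb was 0.573, 0.554 and 0.549 under the KO label, against 0.652, 0.6997 and 0.683 under the Control label. An exact two-sided permutation test of that ratio gave p = 0.1, the smallest that 3 against 3 libraries allow. Groups that do not overlap always give this value, so the test adds nothing to the ratios listed.

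Hars, the histidine enzyme, was the cytosolic gene that did not pass. It measured 69.8, 73.6 and 67.9 TPM in the libraries labelled KO and 67.8, 71.1 and 69.6 TPM in the libraries labelled Control. The groups overlapped, and the 95% confidence interval of the log2 fold change ran from −0.08 to 0.11. Hars2, its mitochondrial counterpart, is the head-to-head neighbour of Hars on chromosome 18, with 3 bases between the listed transcripts. In GENCODE M21, 195 of the 1989 exonic bases of Hars overlap Hars2 exons. The exons taken for Hars2 itself, 3133 bases, were listed with 0 shared bases. These listings do not match, because an overlap is mutual, so shared reads cannot be set aside for either gene. Hars2 averaged 10.1 ± 0.244 TPM under the KO label and 9.91 ± 0.895 TPM under the Control label, also with overlap, with an interval from −0.12 to 0.17.

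Among mitochondrial synthetases, Nars2 had the largest log2 fold change. It too lies on chromosome 7, and with that shift removed (0.37) it came after Wars2 (0.49) and Mars2 (0.40). Nars2, the mitochondrial asparagine enzyme, measured 10.6, 10.7 and 10.1 TPM in the libraries labelled KO, against 6.51, 6.41 and 6.58 TPM in the libraries labelled Control. The groups lay far apart for a gene of this level (ratio 1.61, log2 fold change 0.61, SE 0.054, limma adjusted p = 1.56e-05). Nars2 shares 284 of its 3755 exonic bases with C230038L03Rik on the opposite strand, and the part of that overlap in its value was not tested. Wars2, the tryptophan enzyme, was the least abundant mitochondrial member under the Control label and measured 3.20, 3.45 and 3.48 TPM in the libraries labelled KO, against 2.001, 2.41 and 1.93 TPM in the libraries labelled Control. It rose 1.596-fold (log2 fold change 0.49, SE 0.089, limma adjusted p = 0.00133), on 112 to 254 recovered reads per library. The pseudocount of 1 lessens the change of such low genes: on recovered reads, limma-voom gave Wars2 a log2 fold change of 0.65.

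Mars2 (methionine) had 6.10 ± 0.438 TPM under the KO label and 4.37 ± 0.234 TPM under the Control label, a ratio of 1.40. Sars2 (serine) had 8.96 ± 0.671 TPM under the KO label and 6.65 ± 0.353 TPM under the Control label, a ratio of 1.35. Fars2, a single-chain enzyme for phenylalanine, and Rars2 (arginine) had ratios of 1.24 and 1.14, and the Rars2 call ended in 4 of 14 alternatives. Ears2, the mitochondrial glutamate enzyme, which also loads glutamate onto the glutamine tRNA, measured 3.26, 3.001 and 2.84 TPM in the libraries labelled KO and 2.02, 2.34 and 2.47 TPM in the libraries labelled Control. Its ratio was 1.33, and the call ended when KO replicate 1 was left out (adjusted p = 0.0738) and when Control replicate 1 was (adjusted p = 0.0559).

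Lars2, the mitochondrial leucine enzyme, was the exception in both level and direction. It fell to 123, 129.2 and 115 TPM in the libraries labelled KO, against 159, 149.7 and 129.8 TPM in the libraries labelled Control. The groups just failed to meet, the highest library labelled KO lying below the lowest control by a narrow margin (log2 fold change −0.25, SE 0.071, limma adjusted p = 0.0155). The call ended without KO replicate 3 (adjusted p = 0.0571) and with no filter on low values (adjusted p = 0.0621). Iars2, the next most abundant, measured 58.0, 58.4 and 60.0 TPM in the libraries labelled KO and 52.6, 59.5 and 57.6 TPM in the libraries labelled Control, and its groups overlapped. Iars2 shares 118 of its 3555 exonic bases with Rab3gap2, and Vars2 shares 296 of 4424 with Gm20483, both on the opposite strand.

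The other mitochondrial members did not pass. Aars2, Cars2, Vars2, Yars2, Pars2 and Tars2 had log2 fold changes from −0.07 for Tars2 to 0.08 for Pars2, and all of their groups overlapped. The intervals allow small changes either way: for Aars2 from −0.10 to 0.12, and for Pars2, the proline enzyme on 110 to 138 recovered reads, from −0.10 to 0.26. The mitochondrial genes had larger errors than the cytosolic genes, with a median SE of 0.065 against 0.046. In 25 of the 36 genes every library labelled KO lay above every control, and in 2 every such library lay below. By comparison, 31.3% of all genes tested had their groups apart with KO higher, and 27.2% with KO lower.

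**Figure D3:**
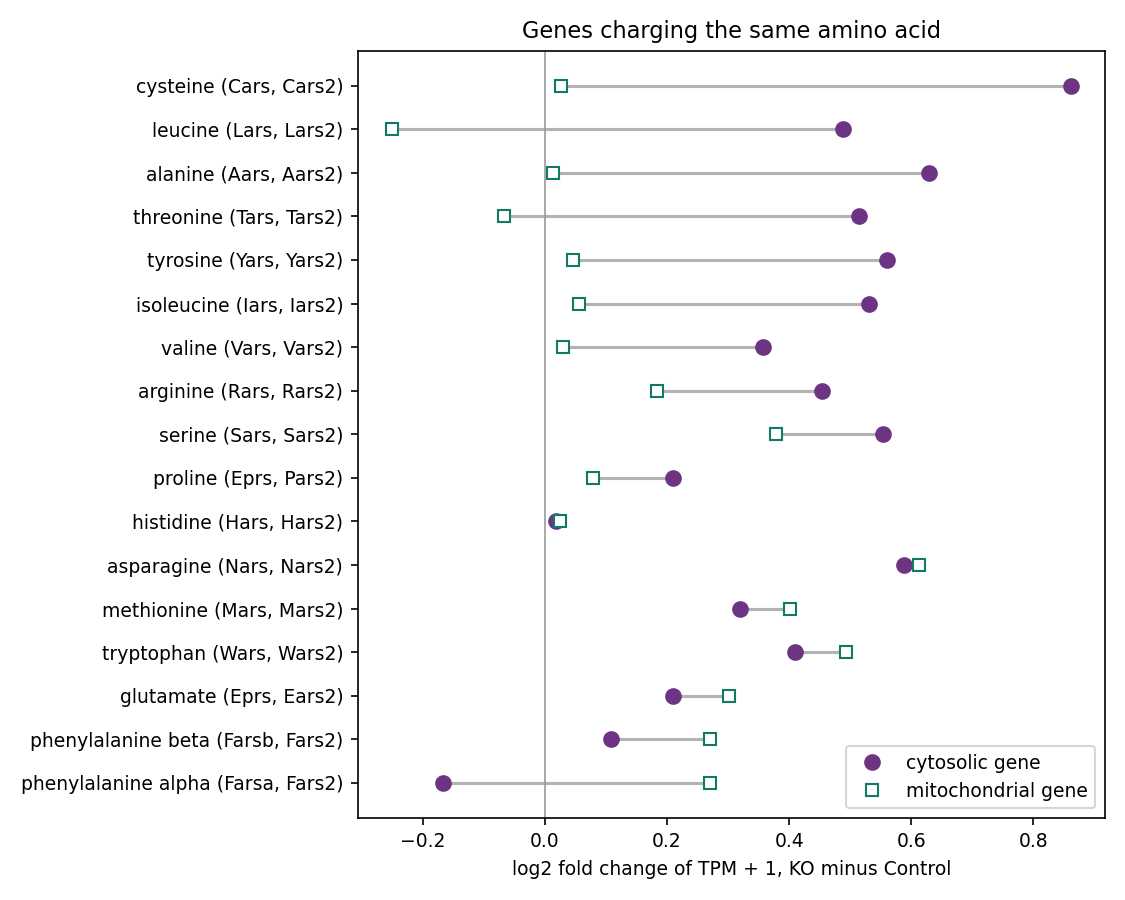
Log2 fold change of TPM + 1 (KO minus Control, x axis) of the cytosolic gene (circle) and the mitochondrial gene (square) for each amino acid, ordered by their difference. The longest gaps are for cysteine (0.86 and 0.03) and leucine (0.49 and −0.25), while the asparagine genes lie together (0.59 and 0.61).

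Pairing the genes by amino acid gave 17 pairs, with Eprs and Fars2 each used in more than a single pair. The cytosolic log2 fold change was the larger in 10 pairs and the mitochondrial in 7. With the chromosome 7 shift removed these were 12 and 5, since the asparagine and glutamate pairs turned, and on the authors' log2 values they were 13 and 4. For cysteine the ratio of Cars to Cars2 was 5.82, 6.17 and 5.86 in the libraries labelled KO, against 3.17, 3.73 and 3.07 in the libraries labelled Control. For alanine the ratio of Aars to Aars2 was 14.5 ± 0.622 under the KO label and 9.47 ± 0.608 under the Control label (SD, n = 3 each). For asparagine, Nars and Nars2 rose by 0.59 and 0.61, and their ratio was 27.0 ± 0.342 under the KO label and 28.9 ± 1.55 under the Control label, with overlapping values. This near equality depended on the chromosome 7 shift: with it removed, Nars2 was at 0.37 and Nars at 0.59. For tryptophan both members rose, and the ratio of Wars to Wars2 was 19.9 ± 0.243 under the KO label and 23.9 ± 1.78 under the Control label, without overlap. The log2 fold changes of Wars and Wars2 were 0.41 and 0.49 on log2(TPM + 1), 0.40 and 0.65 by limma-voom, and 0.36 and 0.33 on the authors' log2 values, so their order turned with the scale. For methionine both members rose and the ratios overlapped, and Mars and Mars2 were at 0.32 and 0.40, 0.31 and 0.46, and 0.28 and 0.26 on the same 3 scales.

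In 15 of the 17 pairs the cytosolic gene was the more abundant under the Control label. The exceptions were leucine and isoleucine. The ratio of Lars to Lars2 was 0.884, 0.829 and 0.892 in the libraries labelled KO, against 0.445, 0.519 and 0.599 in the libraries labelled Control, so Lars2 remained the more abundant in every library. The ratio of Iars to Iars2 was 1.21, 1.16 and 1.10 under the KO label and 0.835, 0.827 and 0.820 under the Control label, so the order of these genes differed between the groups.

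Position on chromosome 7 moved with several of the mitochondrial calls. Genes of chromosome 7 were shifted as a whole: 520 of 878 tested (59.2%) were higher in the libraries labelled KO and 73 (8.31%) were lower, with a median log2 fold change of 0.24, and medians of the other autosomes and of chromosome X lay between −0.05 and 0.06. Cars, Ears2, Nars2 and Sars2 lie on that chromosome, and all 4 rose. With the chromosome's median removed, Cars (0.62, adjusted p = 4.55e-06) and Nars2 (0.37, adjusted p = 0.000478) still passed, whereas Ears2 (0.06, adjusted p = 0.612) and Sars2 (0.14, adjusted p = 0.132) did not. The mitochondrial count was then 5 higher and 1 lower, and the cytosolic count remained 18 and 1. Among the 13 mitochondrial genes on other chromosomes, 4 were higher, 1 was lower and the median was 0.05.

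Of 4 partner genes of mitochondrial charging that were examined, 3 were lower in the libraries labelled KO. Mitochondria make glutamine tRNA by amidating the glutamate loaded by Ears2, with an amidotransferase of the subunits encoded by Qrsl1, Gatb and Gatc. Qrsl1 measured 6.395, 6.71 and 6.06 TPM in the libraries labelled KO, against 8.05, 7.25 and 8.02 TPM in the libraries labelled Control, and the groups did not overlap (log2 fold change −0.25, SE 0.066, limma adjusted p = 0.0112). Gatc fell by 0.20 on the log2 scale, and Gatb did not pass (0.03). Mtfmt, which formylates the methionine loaded by Mars2, fell to 26.0 ± 0.632 TPM under the KO label, against 29.3 ± 0.390 TPM under the Control label (log2 fold change −0.17, limma adjusted p = 0.00707). Thus 3 of these 4 genes fell and 0 rose, against 23.4% lower and 26.7% higher among all genes tested. With so few genes the count is a description and was not tested.

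Of 9 mitochondrial translation factor genes 3 were higher and 1 was lower (33.3% and 11.1%), against 26.7% and 23.4% of all genes tested, so the share of higher genes was near the background. Tufm, the elongation factor that brings charged tRNA to the mitochondrial ribosome, had 47.8 ± 1.89 TPM under the KO label and 37.4 ± 1.17 TPM under the Control label (log2 fold change 0.35). Tufm also lies on chromosome 7, and with that chromosome's median removed it had 0.10 (adjusted p = 0.0818). Mtrf1l, a mitochondrial release factor gene, fell to 5.96 ± 0.222 TPM under the KO label, against 7.61 ± 0.525 TPM under the Control label (log2 fold change −0.31). Outside the members, Tarsl2, a second cytosolic threonine enzyme gene on chromosome 7, rose to 16.0 ± 0.697 TPM under the KO label, against 10.5 ± 0.340 TPM under the Control label (ratio 1.52).

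Of 5 cytosolic elongation factor genes 3 were higher and 0 lower, with a median of 0.155. Over all genes tested, 26.7% were higher and 23.4% were lower. Eef2, the translocation factor, had 1041 ± 27.1 TPM under the KO label and 828.5 ± 46.8 TPM under the Control label (log2 fold change 0.33), and Eef1b2, an exchange factor for the tRNA carrier, rose by 0.23. Of 7 genes of tRNA export and modification 4 were higher and 0 lower, to be set against the same shares over all genes tested. Trnt1, which adds the CCA end, and Xpot, the tRNA exporter, were at 0.25 and 0.27. In the list of editing and tRNA quality genes 0 of 5 were higher and 1 was lower, a share near the 23.4% of all genes tested. Ptrh2, a peptidyl-tRNA hydrolase, had a log2 fold change of −0.16 and lost its call in 7 of 14 alternatives, and Dtd1, which removes D-amino acids from tRNA, had −0.10 and missed the threshold.

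**Figure D4:**
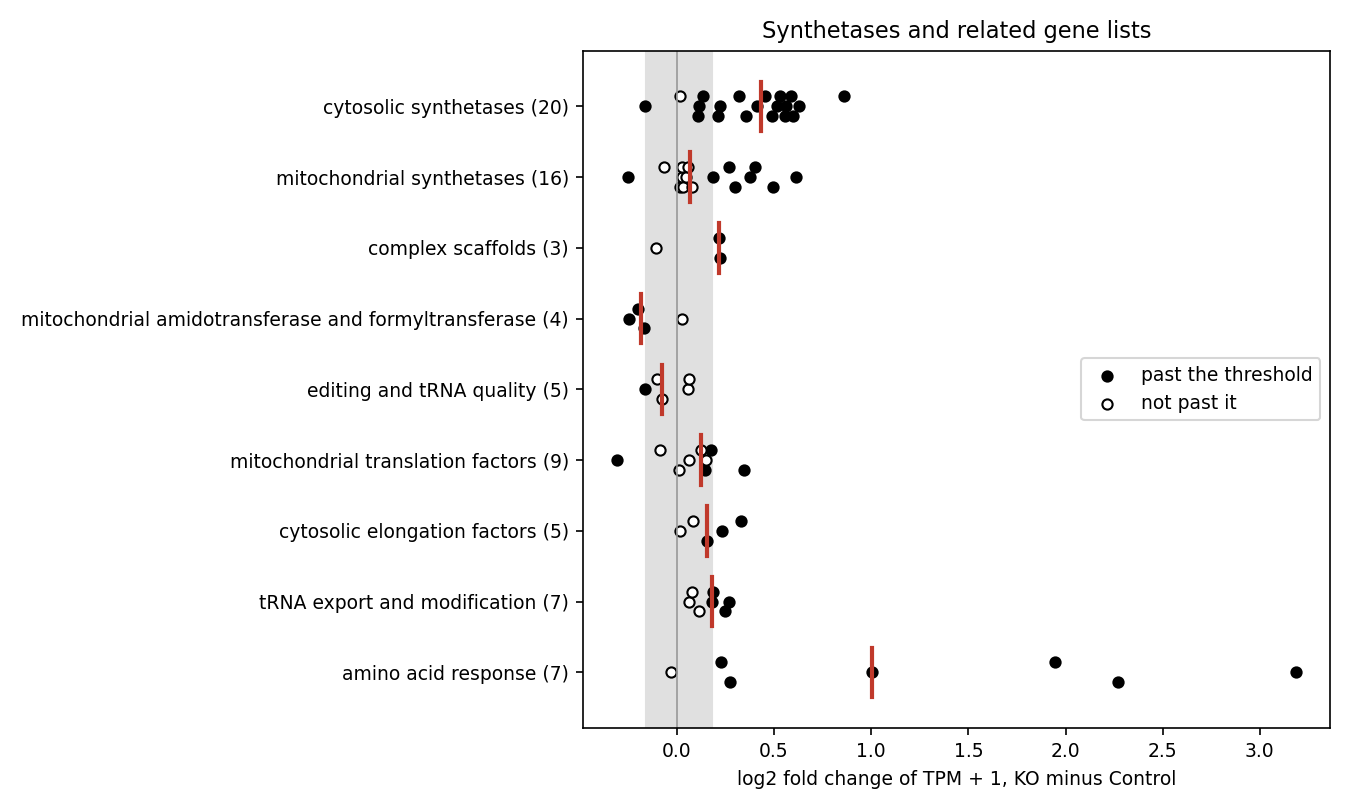
Log2 fold change of TPM + 1 (KO minus Control, x axis) of each gene of the synthetase classes and of the related lists, with the number of genes in brackets. Filled points passed the limma threshold, red lines are list medians and the grey band runs from −0.16 to 0.18, the middle of all tested genes. The amino acid response list reaches 3.18, beyond any synthetase gene.

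Of the 7 amino acid response genes 6 were higher in the same libraries and 0 were lower. The shares over all genes tested were 26.7% and 23.4%. The median log2 fold change of the list was 1.00. Atf4 averaged 721 ± 17.6 TPM under the KO label and 359 ± 11.4 TPM under the Control label, and Chac1, Ddit3 and Trib3 had log2 fold changes of 3.18, 2.27 and 1.95. Asns, the asparagine synthetase gene, which makes the amino acid that Nars and Nars2 load, rose by much less than these, by 0.27.

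The authors' deposited table, with the comparison headed WT vs. TG, gave the same sign as limma for all 36 members when TG is read as the group labelled KO. At an adjusted p under 0.05 the authors' deposited table called 17 of 20 cytosolic genes higher and 1 lower, and 5 of 16 mitochondrial genes higher and 1 lower, against 28.4% of its genes called, 14.2% in each direction. Farsb, Fars2 and Rars2 were the members whose call differed from limma, with adjusted p of 0.0707, 0.0616 and 0.0702 in the authors' deposited table.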

How the data were processed

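Per the labels' protocols, poly(A) RNA of RAW264.7 cells was made into libraries with an NEBNext Ultra RNA kit. Tools named without a role in the submitters' processing notes are STAR 2.7.5a, HOMER 4.11.1, bcl2fastq and DESeq2, and the build is mm10. The authors deposited TPM values of 25124 symbols, each with a transcript, its position and length. A second deposited table holds log2 values per library of 24421 symbols, with a transform that the sources used here do not state, together with the authors' log2 fold change, p-values and adjusted p-values.

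No counts were given, so limma 3.58.1 in R 4.3.3 replaced the count model, on log2(TPM + 1) with a mean-variance trend, two-sided, for genes with a TPM of at least 1 in at least 3 of 6 libraries. Fold changes on this scale understate those of low genes. TPM multiplied by length fell within 0.1 of whole multiples of a step per library in 100% of the low values examined. This gave recovered reads (15615639 to 19867732 per library), used for depth and for limma-voom as an alternative. Replicates of a group differed by more than counting noise (chi-square per degree of freedom of 1.74 to 5.50), so none was treated as a library deposited again. That does not show that they came from separate cultures. The fit was tested on simulated reads in which a small set of genes was changed. That setting differs from these data, where 50.1% of genes were called and chromosome 7 was shifted as a whole. The simulation therefore does not show how the fit performs under such broad changes.

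Members, lists and motifs were chosen with earlier results of these data known. Values of every library were given for members with a ratio of mean TPM of at least 1.5 or at most 1/1.5, the highest and lowest 2 of each class, Gars and Kars, and members lower in their class. From related lists, genes past an absolute log2 fold change of 0.5, or otherwise the 2 with the smallest adjusted p, were named. Values per library of Hars, and values of Aimp2, Gatb, Gatc and Asns, were given beyond this rule. Exon overlaps were read from GENCODE M21 and promoter windows from RefSeq (GRCm38.p6).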

Additional observations from a re-analysis of the deposited data

How the results depend on the processing

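Alternatives were no filter on low values, a TPM minimum of 5, a pseudocount of 0.1, upper-quartile scaling, limma-voom on recovered reads, limma on the authors' log2 values, removal of the chromosome 7 shift, a replicate block and leaving out each library. Of 27 called members, 19 kept their call in every alternative that tested them, 8 lost it in at least 1, and 0 reversed. With no filter, 0 mitochondrial genes were lower, and the authors' log2 values gave a mitochondrial median of 0.038. Leaving out each library gave 15 to 17 cytosolic genes higher, 5 to 7 mitochondrial genes higher and 0 to 1 lower, a mitochondrial median from 0.062 to 0.10, a cytosolic median from 0.41 to 0.47 and a difference between the medians from 0.31 to 0.38. Directions turned with no call involved. Upper-quartile scaling gave −0.0020 for Hars and −0.0048 for Aars2, and limma-voom gave −0.0012 and −0.0036. Leaving out each library gave ranges from −0.014 to 0.044 for Hars, −0.0026 to 0.027 for Aars2, −0.019 to 0.074 for Cars2, −0.0084 to 0.092 for Hars2, −0.0096 to 0.058 for Vars2 and −0.00029 to 0.077 for Yars2. The cause was not tested.

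Equal replicate numbers did not pair the samples: deviations of same-numbered libraries correlated at −0.01, −0.06 and 0.003. The replicate block gave 16 cytosolic genes higher and 1 lower, and 7 mitochondrial genes higher and 1 lower, with Farsb and Kars no longer past the threshold. With a TPM minimum of 5, Ears2, Pars2 and Wars2 were not tested. Low levels limit the mitochondrial class most, where Wars2 and Pars2 rest on the fewest reads.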
